A study of Mus musculus with 3 samples.

Results

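Noggin and 9 further genes of bone morphogenetic protein (BMP) signalling were followed in enteric neurons of the small intestine. The genes were taken by symbol as *Nog*, *Bmp2*, *Bmp4*, *Bmpr1a*, *Bmpr1b*, *Bmpr2*, *Id1*, *Id2*, *Id3* and *Smad6*, and all 10 were found among the 33353 genes listed. BMP ligands bind receptor pairs of type I and type II on the cell surface, the receptors phosphorylate Smad proteins, and these enter the nucleus with Smad4 and switch on target genes such as the *Id* genes. Noggin is a secreted protein that binds the ligands outside the cell and keeps them from the receptors. In the gut wall this pathway is known for its part in the patterning of the ganglia and in the choice of neuronal type.

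Cells were sorted from 3 mice, of strain C57BL/6 by their labels (the study bought the *Ednrb* line on a mixed B6 and 129 background), without the endothelin receptor B gene (*Ednrb*-/-), a model of Hirschsprung disease, at postnatal day 14. All 3 mice carried a tdTomato reporter switched on by Wnt1-Cre, which marks cells of neural crest origin and hence glia as well as neurons. The longitudinal muscle with the myenteric plexus of the whole small intestine was dissected, and 1 library was made per mouse. There was 1 genotype and 1 age, so every comparison below is between cells of the same mice, and none is with wild-type cells.

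The 2060 cells kept by the authors as neurons came as 354, 1050 and 656 cells from mice 1, 2 and 3, with medians of 3734.5, 9599.5 and 9578.5 UMIs (unique molecular identifiers, tags that tell captured RNA molecules apart) in each cell. Mouse 1 stood apart by its lower depth and by a summed level of 10 smooth muscle markers of 69.8 UMIs per 10000, against 15.0 and 10.3 in the other two mice. Its 7 fibroblast and interstitial markers summed to 7.82, against 1.31 and 1.32. The nitrergic marker *Gal* was found in 40.4% of its cells, against 88.6% and 83.8%, shares that are not adjusted for depth. All 6 nitrergic markers summed to 39.1 UMIs per 10000 in mouse 1, against 81.8 and 49.5 in mice 2 and 3. The 10 glial markers were detected too, at 14.5, 12.7 and 10.9 UMIs per 10000. Macrophage markers stayed between 0.487 and 1.07 and endothelial markers at or under 0.0721 UMIs per 10000. Only 2 cell barcodes occurred in more than 1 library. A cell counted as positive for a gene at 1 UMI, and a level is the UMIs of a gene per 10000 UMIs of the cells in question.

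The cells were read in 4 classes. *Nmu*-positive cells (200; 31, 80 and 89 by mouse) hold the transcript of neuromedin U, a peptide of enteric sensory neurons. *Sox10*-positive cells (1088) hold the transcript of a glial and progenitor transcription factor. *Nos1*-only cells (962) have the neuronal nitric oxide synthase of inhibitory neurons and no *Chat*, and *Chat*-only cells (277) have choline acetyltransferase of excitatory neurons and no *Nos1*. A total of 337 cells fell in none. The classes overlap, since 95 *Nmu*-positive cells also had *Sox10*, 85 were also *Nos1*-only and 30 also *Chat*-only. A larger overlap joins *Sox10*-positive cells with *Nos1*-only cells (544 cells) and with *Chat*-only cells (105), so shares by class, given first for each gene, rest in part on the same cells. The 6 sensory markers summed to 17.1, 4.60 and 11.4 UMIs per 10000 in *Nmu*-positive cells and to 4.01, 1.97 and 3.53 in all cells. Most of the first sum was *Calcb*, at 12.9, 3.30 and 8.16, while *Nefl* of the same list was lower than in all cells in mice 1 and 2 (in mouse 2, 0.328 against 0.754), and so was *Nefm* in mouse 1. The nitrergic markers reached 84.7, 132 and 89.6 in *Nos1*-only cells. In *Nmu*-positive cells they summed to 32.7, 74.7 and 39.3, above the sensory markers there, and in all cells to 39.1, 81.8 and 49.5. *Sox10*-positive cells had glial markers at 22.9, 17.5 and 15.4 UMIs per 10000, yet also pan-neuronal markers at 45.1, 48.7 and 45.5, against 56.4, 53.6 and 50.7 in all cells.

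*Nmu* at 1 UMI was a weak label in mice 2 and 3. *Calcb*, a peptide gene of enteric sensory neurons, was found in 21.5% and 28.8% of their cells with 1 UMI of *Nmu*, but in 100% of the cells with 5 or more in each mouse. Results are therefore given both for all *Nmu*-positive cells and by the UMIs of *Nmu*.

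Stretches of sequence before a RefSeq transcript start are shown for *Bmp4* and *Id2*, the ligand and the target gene that were called with *Nog* in the fit at 5 UMIs of *Nmu* below. They were read from RefSeq (GRCm38.p6), whose promoter table held 7 of the 10 genes, and each is limited to bases outside annotated exons. The *Bmp4* stretch is chr14:46390670-46390919 and the *Id2* stretch is chr12:25096254-25096342, both on the minus strand and written 5′ to 3′. The *Bmp4* stretch ends where the GENCODE gene begins, whereas the *Id2* stretch lies inside the longer GENCODE gene. Capitals mark the letters GGCGCC, a GC-rich element known to bind Smad1 and Smad5, which reads the same on both strands.
Bmp4: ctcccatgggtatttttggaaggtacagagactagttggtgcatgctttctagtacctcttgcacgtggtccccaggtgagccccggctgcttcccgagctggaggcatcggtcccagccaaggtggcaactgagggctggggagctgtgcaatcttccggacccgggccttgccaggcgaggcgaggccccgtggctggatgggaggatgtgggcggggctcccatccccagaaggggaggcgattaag
Id2: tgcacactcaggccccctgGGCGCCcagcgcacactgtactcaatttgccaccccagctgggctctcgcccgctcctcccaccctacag

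The *Id2* window held the element once, at position -231 from the RefSeq start, and the windows of *Bmpr1a* and *Bmpr2* once each, at -198 and -105. These 2 windows also lie inside the GENCODE genes, that of *Bmpr2* wholly in exons and that of *Bmpr1a* with 141 of 250 bases in exons. Those of *Bmp4*, *Bmpr1b*, *Id3* and *Smad6* had no such match in 250 bases. The element occurs in 9.59% of 32851 RefSeq windows of this length. The Smad palindrome GTCTAGAC, searched on both strands, was in 0.167% of these windows and in none of the genes followed here.

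*Nog* lies at chr11:89300638-89302332 (GRCm38, minus strand). Its transcript was rare, with 245 UMIs in 101 of 2060 cells, and its UMIs were gathered in few of them. *Nmu*-positive cells held 72.7% of the *Nog* UMIs and 10.4% of the UMIs of all genes. The 37 cells with 5 or more UMIs of *Nmu* held 57.1% of the *Nog* UMIs and 2.25% of all UMIs.

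By mouse, *Nog* was detected in 64.5%, 15.0% and 24.7% of *Nmu*-positive cells (34.7% ± 26.2, SD, n = 3 mice). It was found in 3.85%, 2.07% and 6.98% of *Nos1*-only cells, in 12.5%, 4.05% and 6.19% of *Chat*-only cells and in 2.70%, 2.27% and 5.71% of *Sox10*-positive cells. In each mouse the share in *Nmu*-positive cells lay above the share in every other class. With each cell thinned to 3000 UMIs, the shares of *Nmu*-positive cells were 60.0%, 17.9% and 30.2%, with mouse 1 again the highest. Here and wherever cells are thinned below, the 178 cells under 3000 UMIs were left out and classes were set anew from the thinned counts. This left 107 *Nmu*-positive cells, so the shares are not of the same cells as before. A cell whose *Nmu* or *Sox10* UMIs were not drawn could count as *Nos1*-only or *Chat*-only in the thinned fits.

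Over pooled cells the share was higher in each bin of *Nmu* UMIs than in the bin before. *Nog* was detected in 2.53% of 1860 cells without *Nmu* (median 8198 UMIs), in 7.69% of 130 cells with 1 UMI, in 36.4% of 33 cells with 2 to 4 and in 86.5% of 37 cells with 5 or more (median 10442 UMIs, 95% exact interval 71.2% to 95.5%). At 1 UMI the mice were unlike, with 4 of 6 cells in mouse 1 and 3 of 65 and 3 of 59 in mice 2 and 3, and in mouse 1 the share was lower at 2 to 4 UMIs (6 of 12) than at 1. Among the cells with 5 or more, 10 of 13, 6 of 7 and 16 of 17 cells of mice 1, 2 and 3 had *Nog*, at levels of 3.61, 3.90 and 3.15 UMIs per 10000. In cells without *Nmu* the levels were 0.0588, 0.0231 and 0.0672. The 3 mice, which differed widely over all *Nmu*-positive cells, were close to each other in the highest bin, as the plot by *Nmu* UMIs shows.

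**Figure D1:**
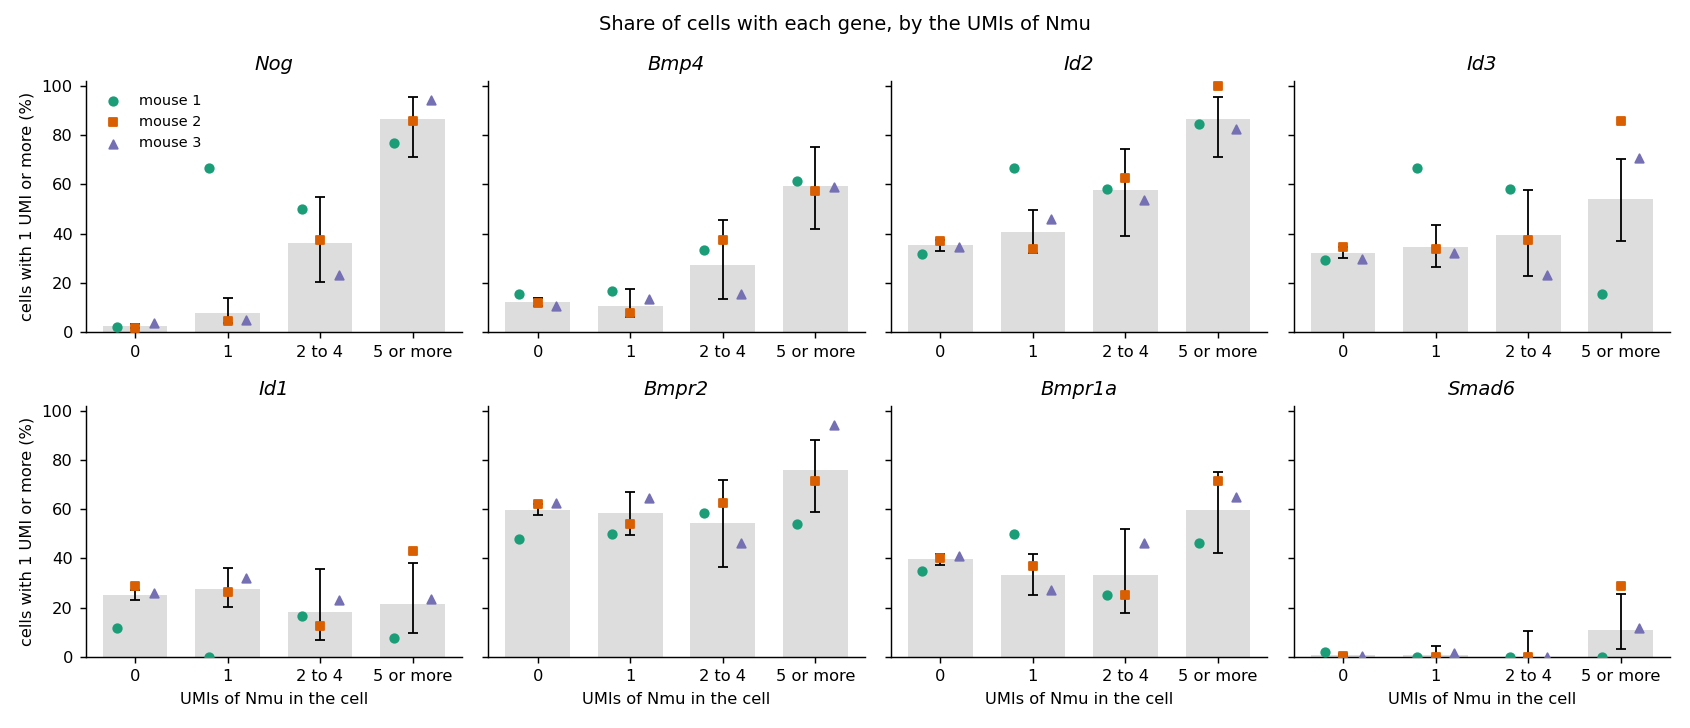
Share of cells with at least 1 UMI of each gene (percent, y axis) by the number of *Nmu* UMIs in the cell (x axis). Grey bars are all cells pooled with 95% exact binomial intervals, which cover counting error only, and points are the 3 mice. *Nog* goes from 2.53% to 86.5% and *Id2* from 35.3% to 86.5% between no *Nmu* and 5 or more UMIs, while *Id1* stays between 18.2% and 27.7%.

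For the tests, cells that qualified for both *Nmu*-positive and *Sox10*-positive were left out, and the other classes were cleared of *Nmu* and *Sox10*. UMIs were summed per mouse and class. In these sums the *Nog* level in *Nmu*-positive cells was 3.32, 0.878 and 1.47 UMIs per 10000 (42, 37 and 60 UMIs in mice 1, 2 and 3). In *Nos1*-only cells it was 0.0671, 0.0368 and 0.0443 (2, 7 and 4 UMIs). Every *Nmu*-positive value thus lay above every *Nos1*-only value, and the ratios were 49.5, 23.9 and 33.2 with exact counting intervals of 12.9 to 422, 10.5 to 63.5 and 12.3 to 126.

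On the log2(UMIs per 10000 + 0.1) scale the difference was 3.55 ± 0.31 (SE, limma over all genes, adjusted p = 0.000102). The size depends on the added 0.1, since it was 4.59 with 0.02 and 1.99 with 0.5. Against *Chat*-only cells, which held 1 and 2 *Nog* UMIs in mice 2 and 3 and too few cells in mouse 1, the difference was 3.60 ± 0.36 (limma, adjusted p = 0.000647), with ratios of 63.7 (counting interval 10.7 to 2583) and 39.4 (10.4 to 333). This second call was lost without mouse 3, which left 1 *Chat*-only sum, with a difference of 3.63. It was also lost when cells in 2 classes entered both sums (1.48, limma adjusted p = 0.115), where 30 cells are shared.

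*Nog* was 1 of 2 of the 9 tested genes called in *Nmu*-positive against *Nos1*-only cells, the other being *Id2*, both higher. Of all 13699 genes tested, 2.66% were called in this comparison, 1.52% higher and 1.14% lower. Against *Chat*-only cells *Nog* was the only 1 of 9 called, where 0.752% of all genes were called, 0.657% higher and 0.0949% lower. *Sox10*-positive cells against the mean of *Nos1*-only and *Chat*-only cells gave 1 of 9 (*Id3*, higher) beside 2.15% of all genes, 1.64% higher and 0.511% lower. *Nos1*-only against *Chat*-only cells gave 0 of 9 at an adjusted p under 0.05 in limma and 2 of 9 (*Id2* and *Id3*) at an unadjusted p under 0.05. Of all genes, 0.971% were called there, 0.635% higher and 0.336% lower, and 10.2% had an unadjusted p under 0.05. The tenth gene, *Bmpr1b*, had 9 UMIs and was not tested.

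**Figure D2:**
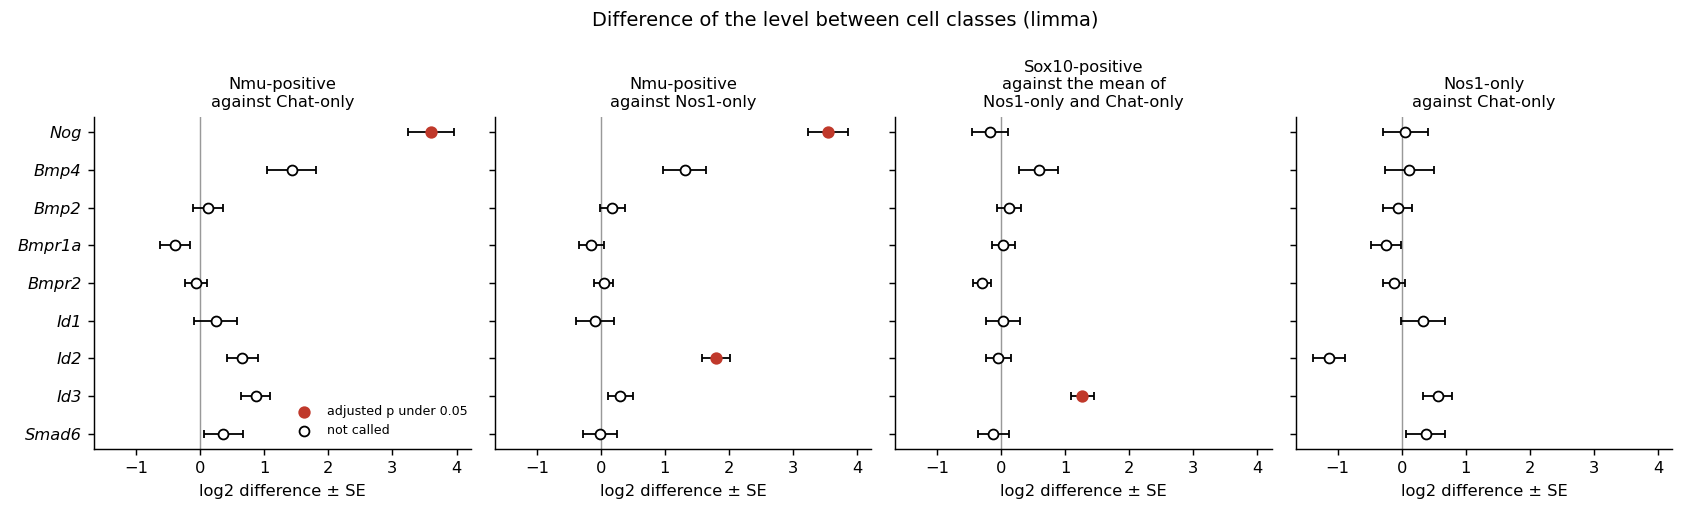
Difference of the level between cell classes for the 9 tested genes, in log2(UMIs per 10000 + 0.1) with the standard error of the limma fit, in 4 panels for the 4 comparisons. Filled points have an adjusted p under 0.05: *Nog* in both *Nmu*-positive comparisons, *Id2* against *Nos1*-only cells and *Id3* in *Sox10*-positive cells.

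*Bmp4* (chr14:46383520-46390669) encodes a ligand that Noggin binds. It was detected in 271 cells, and in 41.9%, 15.0% and 22.5% of *Nmu*-positive cells against 13.8%, 11.3% and 11.0% of *Nos1*-only cells. *Sox10*-positive cells had it at 18.2%, 15.9% and 14.1%, above the *Nmu*-positive cells in mouse 2, and held 60.2% of the *Bmp4* UMIs. The share was 12.2% in cells without *Nmu* and 59.5% in the 37 cells with 5 or more UMIs of *Nmu*, that is in 8 of 13, 4 of 7 and 10 of 17 cells of the 3 mice. Shares in that bin were nearly the same in the 3 mice, but levels were not, at 2.64, 0.541 and 0.687 UMIs per 10000.

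Over all *Nmu*-positive cells of the fit, *Bmp4* was at 1.74, 0.142 and 0.392 UMIs per 10000, and at 0.335, 0.0998 and 0.0665 in *Nos1*-only cells. It was higher in *Nmu*-positive cells of each mouse, but the groups overlapped, and the difference of 1.31 ± 0.33 had an adjusted p of 0.0624 in limma. It passed without mouse 2 (1.82, limma adjusted p = 0.0256). It also passed without the 691 cells that held at least 5 of the 10 smooth muscle markers (1.49, limma adjusted p = 0.0205). Of these cells 85, 388 and 218 were from mice 1, 2 and 3, and their median was 9762 UMIs. This setting thus removed mostly cells of the deeper mice 2 and 3, although the markers were highest in mouse 1. The *Bmp4* difference did not pass without mouse 1 (0.92, limma adjusted p = 0.353) or with thinned cells (1.38, limma adjusted p = 0.105). Of the 16 alternatives run, 4 called it. Against *Chat*-only cells the difference was 1.42 ± 0.39 (limma, adjusted p = 0.139).

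A fit with 5 UMIs of *Nmu* as the limit, chosen after the data were seen, had *Nmu*-high sums for mice 1 and 3 only, because mouse 2 had 7 such cells. Unlike in the fit above, *Nmu*-high cells with *Sox10* were kept, while *Nos1*-only and *Chat*-only cells stayed cleared of *Sox10*. What part this had in the calls was not tested. *Bmp4* was then 2.42 ± 0.27 higher than in *Nos1*-only cells (limma, adjusted p = 0.000485) and 2.63 ± 0.32 higher than in *Chat*-only cells (limma, adjusted p = 0.000811). *Nog* and *Id2* were called in both comparisons as well, and the other 6 tested genes in neither. In this fit 11.9% and 10.8% of all genes were called against *Nos1*-only and *Chat*-only cells, of which 4.3% and 4.34% of all genes were higher.

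*Nog* and *Bmp4*, the inhibitor and its ligand, were both frequent in the highest *Nmu* bin. Of its 37 cells, 32 had *Nog*, 22 had *Bmp4*, 19 had both transcripts, 2 had neither, and 17 had *Nog*, *Bmp4* and *Id2*. By mouse, 7 of 13, 3 of 7 and 9 of 17 cells had both. The product of the 2 shares gives 19.0 cells with both, so within this bin the genes were found together no more often than their shares alone give. Of 1860 cells without *Nmu*, 9 had both, where the product gives 5.71.

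*Bmp2*, a second ligand, was found in 20 cells with 24 UMIs. It was in 1 of 200 *Nmu*-positive cells and in none of the 37 with 5 or more UMIs of *Nmu*, which allows a share of up to 9.49% (exact interval). Its level stayed at or under 0.0608 UMIs per 10000 in each class and mouse, and no difference was detectable at this depth.

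No receptor was called in any of the 4 comparisons. *Bmpr2*, the type II receptor, was detected in 1233 cells, in 54.8%, 56.2% and 67.4% of *Nmu*-positive, 45.9%, 62.8% and 65.8% of *Sox10*-positive, 60.0%, 64.8% and 62.5% of *Nos1*-only and 56.2%, 66.2% and 64.6% of *Chat*-only cells. The ranges of the 4 classes over mice overlap. Its fitted differences were 0.05 ± 0.15 for *Nmu*-positive against *Nos1*-only cells and -0.30 ± 0.14 for *Sox10*-positive cells, and neither was called (limma, adjusted p = 0.915 and 0.356).

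*Bmpr1a*, a type I receptor, was in 812 cells and at 38.7%, 38.8% and 37.1% of *Nmu*-positive cells, with 35.0%, 40.2% and 40.5% of all cells. It had fitted differences between -0.40 and 0.03. *Bmpr1b*, the alternative type I receptor, was in 8 cells, with at most 0.0360 UMIs per 10000 in any class and mouse. In the 37 cells with 5 or more UMIs of *Nmu*, *Bmpr1a* was detected in 46.2%, 71.4% and 64.7% and *Bmpr2* in 53.8%, 71.4% and 94.1% of cells by mouse. The fit at 5 UMIs of *Nmu* called neither. *Bmpr1a* and *Bmpr2* met in 524 cells. In the mean over mice, 61.4% ± 9.88 (SD, n = 3) of cells with *Bmpr1a* had *Bmpr2*, against 55.4% ± 6.68 of cells without it.

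**Figure D3:**
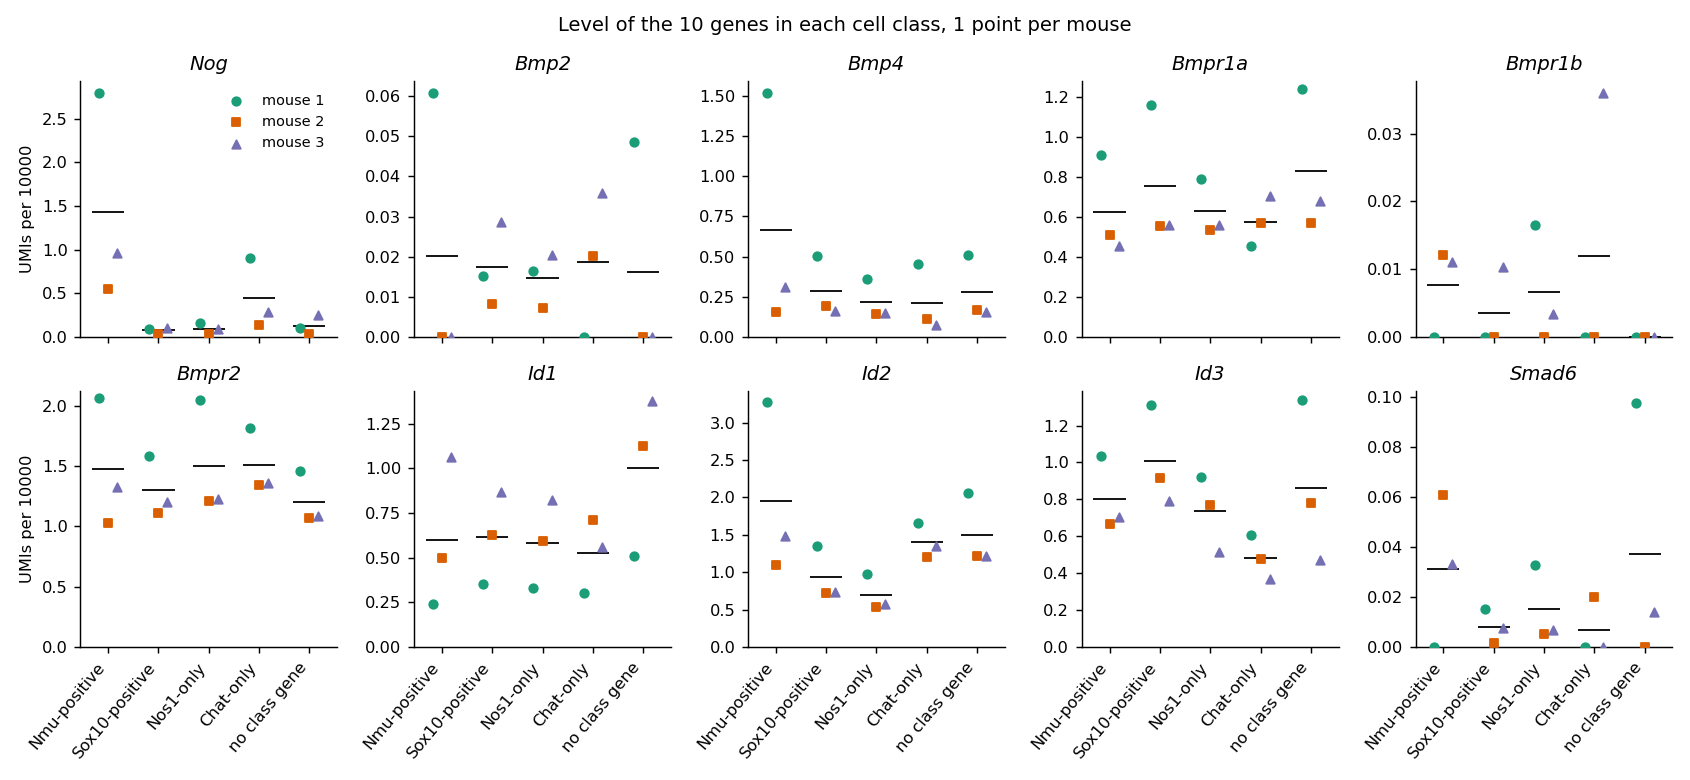
Level of the 10 genes in UMIs per 10000 (y axis, each panel with its own scale from 0) in the 4 cell classes and in cells with none of their genes (x axis). Points are the 3 mice and lines their mean. The *Nog* mean is 1.43 in *Nmu*-positive cells and at most 0.443 elsewhere, whereas *Bmpr2* means in the 4 classes start at 1.30, in *Sox10*-positive cells.

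The *Id* genes encode helix-loop-helix proteins without a DNA-binding domain, which bind and hold back transcription factors of that class, and the 3 genes are known BMP targets. *Id2* (chr12:25093799-25097140) was detected in 71.0%, 42.5% and 53.9% of *Nmu*-positive cells and in 26.9%, 29.0% and 30.9% of *Nos1*-only cells. In *Chat*-only cells it was in 37.5%, 52.0% and 45.1%, above the *Nmu*-positive cells in mouse 2. In the highest *Nmu* bin 11 of 13, 7 of 7 and 14 of 17 cells had *Id2*, at levels of 4.30, 3.36 and 2.30 UMIs per 10000.

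In the sums for the fit *Id2* stood at 4.03, 1.47 and 2.03 UMIs per 10000 in *Nmu*-positive cells and at 0.738, 0.473 and 0.588 in *Nos1*-only cells. The groups did not overlap, with ratios of 5.46, 3.11 and 3.46, and the difference was 1.80 ± 0.21 (limma, adjusted p = 0.0008). It was 1.55 without mouse 1 and 1.88 without mouse 3, both no longer called (limma, adjusted p = 0.107 and 0.0559). Against *Chat*-only cells, at 1.41 and 0.952 in mice 2 and 3, the difference was 0.66 ± 0.25 (limma, adjusted p = 0.274).

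*Nos1*-only cells had less *Id2* than *Chat*-only cells in each mouse, with ratios of 0.633, 0.336 and 0.617, where the *Chat*-only cells of mouse 1 were the 9 left out of the fit. The fitted difference of -1.14 ± 0.25 had an adjusted p of 0.0532 in limma. It was -1.24 without cells with at least 5 smooth muscle markers and -1.12 without those with at least 8, both called (limma, adjusted p = 0.0366 and 0.045). Over all cells of mouse 1, *Id2* was at 2.73 UMIs per 10000 in cells with at least 5 smooth muscle markers and at 1.25 in the others.

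*Id3* (chr4:136143497-136145755) was highest in *Sox10*-positive cells once these were set apart from *Nmu*. Their levels were 1.28, 0.920 and 0.776 UMIs per 10000, against 0.671, 0.483 and 0.255 in *Nos1*-only cells and 0.583, 0.276 and 0.168 in *Chat*-only cells. Each *Sox10*-positive value lay above all values of the other 2 classes. The difference from their mean was 1.26 ± 0.18 (limma, adjusted p = 0.00345).

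This call was lost whichever mouse was left out, though the difference changed little, at 1.32, 1.36 and 1.12 without mouse 1, 2 and 3. Without mouse 1 the adjusted p of limma was 0.0747. Leaving out mouse 2 or 3 left 1 *Chat*-only sum, and fewer genes of any kind were called with a mouse left out. With cells thinned to 3000 UMIs the *Id3* difference was 0.65 (limma, adjusted p = 0.43), and with cells allowed in 2 classes 0.66 (limma, adjusted p = 0.227). In the fit at 5 UMIs of *Nmu* it was 1.36 (limma, adjusted p = 0.107). In the same sums *Sox10*-positive cells held glial markers at 23.7, 17.4 and 15.6 UMIs per 10000, against 9.16, 6.54 and 4.73 in *Nos1*-only and 9.62, 2.52 and 2.63 in *Chat*-only cells, and the part of these in the *Id3* result was not tested.

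In the highest *Nmu* bin *Id3* divided the mice. It was detected in 2 of 13 cells of mouse 1, 6 of 7 of mouse 2 and 12 of 17 of mouse 3. The glial markers of the same cells summed to 1.67, 9.96 and 9.69 UMIs per 10000 and the nitrergic markers to 5.55, 71.9 and 42.6, also lowest in mouse 1. What part they had in the *Id3* shares was not tested.

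The share of cells with *Id1* (chr2:152736251-152737410) was lowest in mouse 1 in each of the 4 classes. It was detected in 11.6%, 28.7% and 26.4% of all cells, and in 9.68%, 26.2% and 29.2% of *Nmu*-positive cells. Thinned to 3000 UMIs, the shares of all cells were 8.70% in mouse 1 and 13.7% in mouse 3, so a gap to mouse 1 stayed at equal depth. The fitted differences ran from -0.09 to 0.33 and none was called. Its UMIs were concentrated, as the 5% of cells with most *Id1* held 61.7%, 52.3% and 62.4% of them in the 3 mice. For *Id2* the same figure was 37.5%, 37.6% and 35.7%.

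The 3 *Id* genes were found together in 123 cells (5.97%), while 771 cells had none of them. *Id3* was detected in 36.6%, 47.5% and 35.3% of cells with *Id1* and in 29.7%, 29.9% and 29.4% of cells without it. *Id2* was detected in 56.1%, 48.2% and 56.1% of cells with *Id1* and in 32.3%, 33.0% and 30.6% without it. After thinning, *Id2* was still more frequent beside *Id1* in each mouse (45.8%, 30.2% and 32.1% against 29.4%, 14.8% and 16.7%), but *Id3* was not in mouse 3 (11.9% against 12.3%).

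*Smad6*, an inhibitory Smad that BMP signals themselves induce, had 21 UMIs in 16 cells. Of these cells 4 were among the 37 with 5 or more UMIs of *Nmu*, which held 33.3% of the UMIs. The 4 cells came from mouse 2 (2 of 7) and mouse 3 (2 of 17), and none of 13 cells in mouse 1 had it. In cells without *Nmu* the share was 0.591%. The fit called no difference, and its *Nmu*-positive sums held *Smad6* in mouse 2 alone.

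A list of 42 further pathway genes was read in the same fit, of which 34 had enough UMIs for a test. In *Nmu*-positive against *Nos1*-only cells 3 of 34 were higher and 0 lower, with a median difference of -0.01 beside -0.05 over all genes, of which 1.52% were higher and 1.14% lower. These were *Id4*, *Smad9* and *Smad7*. *Id4*, the fourth *Id* gene, was 2.22 ± 0.38 higher (limma, adjusted p = 0.00833) and *Smad9*, a receptor-activated Smad, 1.33 ± 0.24 (limma, adjusted p = 0.0107). *Smad7*, an inhibitory Smad, was 1.32 ± 0.30 higher (limma, adjusted p = 0.0359).

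Against *Chat*-only cells 1 of 34 was higher (0.657% of all genes), again *Id4* (2.15 ± 0.43, limma adjusted p = 0.046), and 1 lower (0.0949% of all genes), the ligand gene *Bmp3* (-0.88 ± 0.18, limma adjusted p = 0.0465). *Bmp3* was in 21 cells in all and in none of 200 *Nmu*-positive cells. It was also lower in *Nos1*-only than in *Chat*-only cells (-0.86 ± 0.18, limma adjusted p = 0.0449), the single call of 34 there, beside 0.336% of all genes. In *Sox10*-positive cells 2 of 34 were higher and 0 lower, beside 1.64% and 0.511% of all genes, both secreted proteins. *Sostdc1*, which binds BMP ligands, was 2.14 ± 0.32 higher (limma, adjusted p = 0.00482) and the follistatin-like *Fstl1* 1.21 ± 0.19 (limma, adjusted p = 0.00743).

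All 8 of these calls were lost without mouse 1. The adjusted p of limma was then 0.12 for *Smad9*, 0.26 for *Smad7*, 0.143 for *Fstl1* and 0.111 for *Sostdc1*. For *Bmp3* it was 0.131 in *Nmu*-positive and 0.11 in *Nos1*-only cells, and for *Id4* 0.176 against *Nos1*-only and 0.159 against *Chat*-only cells. Without mouse 2 and 3 it was 0.131 and 0.274 for *Smad9* and 0.141 and 0.176 for *Smad7*. For *Id4* against *Nos1*-only cells it was 0.0013 and 0.205, so that call held without mouse 2. Leaving out mouse 2 or 3 left 1 *Chat*-only sum, so no adjusted p is given for comparisons with these cells. There, *Fstl1*, *Sostdc1* and *Bmp3* were lost in both fits and *Id4* without mouse 3. None of the 8 changed sign. Fewer genes of any kind were called with a mouse left out, so a lost call alone does not show a smaller difference.

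**Figure D4:**
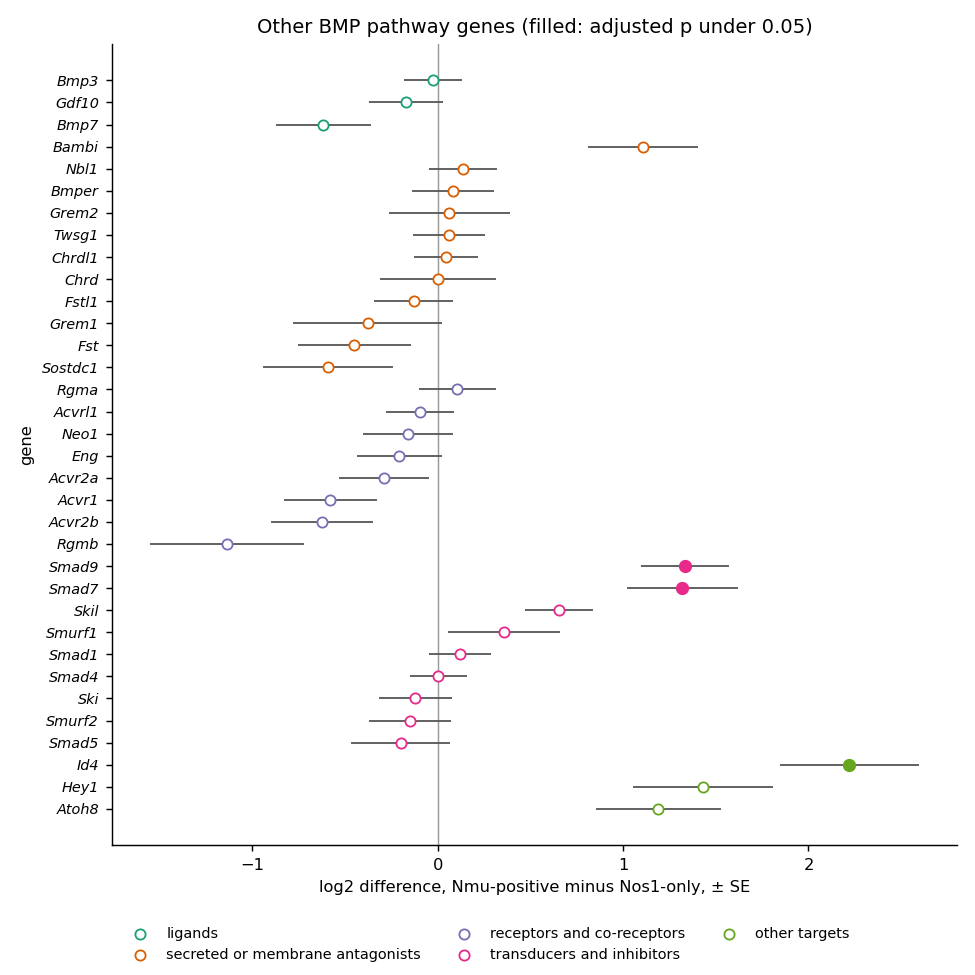
Difference of the level between *Nmu*-positive and *Nos1*-only cells for 34 other genes of the pathway, in log2(UMIs per 10000 + 0.1) with the standard error of the limma fit, coloured by role and sorted within it. Filled points, at 2.22 for *Id4*, 1.33 for *Smad9* and 1.32 for *Smad7*, have an adjusted p under 0.05, and 31 genes do not.

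*Id4* was frequent in cells with 2 or more UMIs of *Nmu*. Over pooled cells it was in 22.9% of cells without *Nmu*, in 26 of 130 cells with 1 UMI, in 66.7% with 2 to 4 and 83.8% with 5 or more. At 1 UMI the mice were unlike, with *Id4* in 6 of 6 cells of mouse 1 and in 9 of 65 and 11 of 59 of mice 2 and 3. With 5 or more UMIs it was in 10 of 13, 6 of 7 and 15 of 17 cells of the 3 mice. *Smad7* went from 13.7% to 40.5% and *Smad9* from 4.52% to 37.8% between no *Nmu* and 5 or more UMIs. In that bin the 3 mice lay between 38.5% and 42.9% for *Smad7* and between 28.6% and 47.1% for *Smad9*.

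Over the 11 sums of mouse and class, the genes whose level was most like that of *Nog* were *Gpr149* (Pearson r = 0.991), *Nmu* itself (0.988), *Wif1*, a secreted Wnt inhibitor (0.987), *Gm16685* (0.982) and the cytokine gene *Il7* (0.982). For *Id1* they were *Mrpl32* (0.957), *0610009O20Rik* (0.955), *Nipsnap1* (0.936), *Gm10036* (0.934) and *Gm27030* (0.932), and for *Id3* *Hadh* (0.940), *Stk32a* (0.939), *Plin3* (0.928), *Itga1* (0.924) and *Kctd14* (0.920). The sums share mice and depth, 3 of them are the *Nmu*-positive cells, and *Gm16685* and *Il7* had 20 and 40 UMIs in all. All other sums were cleared of *Nmu* by the class rule. The r of *Nmu* thus restates that rule and the *Nog* difference above, and is no separate result.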

How the data were processed

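Single-cell RNA-seq (10x Chromium v3.1) was measured in 3 mice, 1 library each. The authors counted UMIs with Cell Ranger on mm10 (per the labels; version not given in the sources used here), filtered cells and genes with Seurat, merged the mice, kept neurons and deposited the natural log of 1 plus the UMIs per 10000. Whole UMIs were recovered (100% of values whole within 1e-06). Levels are per all UMIs of a cell, of which genes left out of the table made up 12.7% (median). Depth per mouse is given above, and intervals cover counting error only.

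The deposited unit is a log, so limma was the test, and no count model was run on the recovered UMIs. UMIs were summed per mouse and class (sums of at least 10 cells, so the *Chat*-only sum of mouse 1, with 9 cells, was left out), taken as log2(UMIs per 10000 + 0.1) and fitted with limma 3.58.1 in R 4.3.3, with class and the mouse as replicate block, since the classes come from the same animals. Genes needed 20 UMIs, *Nmu*, *Sox10*, *Nos1* and *Chat* got no test, and p-values were adjusted (Benjamini-Hochberg) over 13699 genes. The fit was first tested on simulated data, with 200 genes raised 4-fold in the *Nmu*-positive sums. Against *Nos1*-only cells it called 197 of these 200 genes, and 20 unchanged genes as well. The raised genes were drawn from those above a minimum level, so the rarest genes were not covered. The genes and lists were chosen with earlier results of these data known. Named genes are the 10 members, class genes, called genes of the wider list and 5 nearest genes of *Nog*, *Id1* and *Id3*. *Calcb*, *Nefl*, *Nefm* and *Gal* were singled out after their values were seen. Doublets were not called here. No sample columns outside the sample list were found (0). Positions are of GENCODE M21 (GRCm38).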

Additional observations from a re-analysis of the deposited data

How the results depend on the processing

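Of 44 differences of single genes (9 members in 4 comparisons and 8 calls of the wider list), 12 were called and none of these changed sign under the alternatives run. Of the 32 not called, 21 changed sign under at least 1 alternative, and none of the 21 was called under any. Over all 44, 74 values no longer passed the threshold and 15 newly passed. Without the replicate block the number of all genes called fell from 103, 364, 295 and 133 (*Nmu*-positive against *Chat*-only, *Nmu*-positive against *Nos1*-only, *Sox10*-positive, *Nos1*-only against *Chat*-only, in this order below) to 38, 138, 109 and 37, and the members called stayed at 1, 2, 1 and 0. All genes called numbered 18, 69, 108 and 27 without a filter on low genes, 231, 139, 31 and 64 when thinned, 20, 48, 0 and 214 with overlapping classes, and 1689, 1602, 866 and 391 at 2 UMIs for a positive cell. At 5 UMIs of *Nmu* they were 1484, 1636 and 180 in the first 3. With a pseudocount of 0.02 they were 170 in *Sox10*-positive and 81 in *Nos1*-only cells, and 163 in *Sox10*-positive cells without those with 5 or more smooth muscle markers. Leaving out 1 mouse gave 0 to 56, 16 to 232, 0 to 21 and 6 to 47.

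Here and in the counts of all genes above, the fit at 2 UMIs had no *Nmu*-positive sum for mouse 2, whose 9 such cells were too few. Members called against *Chat*-only cells were 0 with overlapping classes, 4 at 2 UMIs, 3 at 5 UMIs of *Nmu* and 0 to 1 with a mouse left out. Against *Nos1*-only cells they were 4 at 2 UMIs and 1 to 3 with a mouse left out. For *Sox10*-positive cells they were 0 when thinned, 0 with overlapping classes, 0 at 5 UMIs of *Nmu* and 0 to 0 with a mouse left out. *Nos1*-only against *Chat*-only cells gave 1 (*Id2*) with overlapping classes, at 2 UMIs, at 5 UMIs of *Nmu* and without cells with 5 or more or 8 or more smooth muscle markers. The share of *Nmu*-positive cells with *Nog*, 34.7%, was 62.4% at 2 UMIs, 85.6% at 5 UMIs of *Nmu* and 19.9% to 44.6% with a mouse left out. Members with their highest mean share in *Nmu*-positive cells numbered 5, 8 at 5 UMIs of *Nmu* and 3 to 7 with a mouse left out. The same count was not made over all genes, so these numbers are no result about the pathway. Depth raises the share of every gene, and cells with 5 or more UMIs of *Nmu* had a median of 10442 UMIs, against 8198 without *Nmu*. The cause of the shifts between settings was not tested. Alternatives at 5 UMIs of *Nmu*, without shared barcodes and without cells with 8 or more smooth muscle markers were chosen after seeing the data. With 3 mice, 1 of them shallow, small differences could not be detected.

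The sign changes, on the log2 scale with the reported value in brackets, were these. In *Nmu*-positive against *Chat*-only cells, *Bmp2* (0.12) was -0.31 thinned, -0.0077 with overlapping classes, -0.065 at 5 UMIs of *Nmu* and -0.093 to 0.34 with a mouse left out. *Bmpr1a* (-0.40) was 0.065 with overlapping classes. *Bmpr2* (-0.070) was 0.13 without the replicate block, 0.29 thinned, 0.15 at 2 UMIs, 0.034 without cells with 5 smooth muscle markers, 0.30 at 5 UMIs of *Nmu* and -0.14 to 0.042 with a mouse left out. *Id1* (0.24) was -0.14 without the replicate block, -0.57 thinned, -0.36 at 2 UMIs, -0.81 at 5 UMIs of *Nmu* and -0.64 to 0.96 with a mouse left out. *Smad6* (0.36) was -0.24 at 2 UMIs and -0.11 to 0.62 with a mouse left out.

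In *Nmu*-positive against *Nos1*-only cells, *Bmp2* (0.18) was -0.10 thinned, -0.064 without cells with 5 smooth muscle markers, -0.093 at 5 UMIs of *Nmu* and -0.15 to 0.35 with a mouse left out. *Bmpr2* (0.045) was -0.033 with overlapping classes. *Id1* (-0.094) was -0.36 to 0.15 with a mouse left out. *Smad6* (-0.015) was 0.011 with a pseudocount of 0.5, 0.44 thinned, 0.17 with overlapping classes, 0.45 without cells with 5 smooth muscle markers, 0.27 without cells with 8 and -0.51 to 0.35 with a mouse left out.

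In *Sox10*-positive cells, *Bmp2* (0.12) was -0.032 thinned and -0.026 to 0.23 with a mouse left out. *Bmpr1a* (0.031) was -0.12 to 0.20 with a mouse left out. *Id1* (0.026) was -0.16 without the replicate block, -0.21 thinned, -0.41 at 2 UMIs, -0.061 at 5 UMIs of *Nmu* and -0.36 to 0.45 with a mouse left out. *Id2* (-0.048) was 0.089 without the replicate block, 0.068 thinned, 0.033 at 2 UMIs, 0.039 without cells with 5 smooth muscle markers, 0.0038 with median-of-ratios scaling and -0.14 to 0.10 with a mouse left out. *Smad6* (-0.12) was 0.072 without cells with 5 smooth muscle markers and 0.058 without cells with 8.

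In *Nos1*-only against *Chat*-only cells, *Nog* (0.056) was -0.080 with a pseudocount of 0.5, -0.15 thinned, -1.27 with overlapping classes and -0.033 to 0.17 with a mouse left out. *Bmp2* (-0.066) was 0.0054 without the replicate block, 0.079 without cells with 5 smooth muscle markers, 0.028 at 5 UMIs of *Nmu* and -0.25 to 0.055 with a mouse left out. *Bmp4* (0.12) was -0.051 with a pseudocount of 0.5 and -0.12 without cells with 5 smooth muscle markers. *Bmpr1a* (-0.25) was 0.11 with overlapping classes. *Bmpr2* (-0.11) was 0.085 without the replicate block and 0.24 thinned. *Id1* (0.33) was -0.046 without the replicate block and -0.28 to 1.03 with a mouse left out. *Smad6* (0.37) was -0.045 thinned.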

Other observations

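Cells were also read by their *Nog* UMIs, as a description. Of 41 cells with 2 or more UMIs of *Nog*, 33 had *Nmu*, that is 92.9%, 69.2% and 78.6% of 14, 13 and 14 cells in mice 1, 2 and 3, and 34 had *Id2*. *Id1* was in 0 of the 14 cells of mouse 1 and in 53.8% and 42.9% of those of mice 2 and 3. *Sox10* was in 7.14%, 38.5% and 35.7% of them. Of 60 cells with 1 UMI of *Nog*, 21 had *Nmu*, 31 had *Id2* and 5 had *Id1*. By comparison, *Id1* was in 13 of the 41 cells with 2 or more and in 497 of 1959 cells without *Nog*, so its share followed no single direction.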
